A study of Mus musculus with 18 samples.

Results

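Levels of 9 germline Tudor domain genes (Tdrd1, Tdrd5, Tdrd6, Tdrd7, Tdrd9, Tdrd12, Tdrkh, Stk31 and Rnf17) were examined in cultured mouse testes. The genes were taken by family membership, with no threshold on a measured value but with earlier results of these data known, and all 9 had a row among the 22657 genes of the table and passed the filter on low values described below. ICR mice received 1 dose of busulfan, an alkylating anti-cancer drug that kills dividing germ cells, at 3 weeks of age and 40 μg per g body weight. Their testes were taken 2 weeks later and cultured for 48 h in DMEM/F12 medium with serum, without alginate oligosaccharides (AOS, short sugar chains made from brown seaweed alginate) in B0, with 10 μg/mL AOS in BA10 and with 50 μg/mL AOS in BA50. Testes of age-matched mice without busulfan were cultured in the same medium without AOS (A0), with 10 μg/mL (A10) and with 50 μg/mL AOS (A50). Each of the 6 groups had 3 samples, 18 in all. The busulfan dose was given to the animal and AOS to the isolated testis, and all 6 groups went through the culture.

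Tudor domains are protein folds that bind methylated arginines or lysines. In germ cells, Tudor proteins bind the methylated arginines of PIWI proteins, and thereby help to build germ granules such as the intermitochondrial cement of spermatocytes and the chromatoid body of spermatids. In these granules PIWI-interacting RNAs (piRNAs), which silence transposons and guard male fertility, are made and used. Mouse mutants of most of these genes are known for male sterility with an arrest in meiosis or in spermatids.

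Values are FPKM, sequenced fragments of a gene divided by transcript length and by the total of the sample, so levels of different genes can be set side by side. How deeply each sample was sequenced is unknown. Per sample, 14291 to 15040 genes had at least 1 FPKM, and Pearson's r between samples of 1 group across genes was 0.962 to 0.993 on the log2(FPKM + 1) scale. Each treatment used 6 testes and was repeated 3 times, but whether the 3 samples of a group are these repeats is not stated, so p-values measure the spread between these samples, which may in part be technical. The tissue expressed the Sertoli cell gene Clu, between 1756 and 3329 FPKM in group means, and the germ cell gene Ddx4, between 40.9 and 139 FPKM. Of 8 Sertoli cell genes listed, 7 passed the filter on low values. B0 stood apart in genes of other tissues. Summed FPKM of 7 fat cell genes was 207 to 887 in B0 against 62.6 to 84.9 in A0, and of 5 genes of simple epithelia 79.4 to 203 against 25.4 to 46.6. All 7 fat cell genes and 4 of the 5 epithelial genes rose in B0 against A0. The fat cell sum was 68.0 to 123 in BA10 and 101 to 138 in BA50, and the epithelial sum 17.0 to 28.1 and 20.2 to 28.9.

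The 9 genes lie on 9 different chromosomes (GENCODE annotation, GRCm38): Tdrd1 at chr19:56826209-56870012, Tdrd5 at chr1:156255296-156303664, Tdrd6 at chr17:43615335-43630299, Tdrd7 at chr4:45965334-46034761, Tdrd9 at chr12:111971559-112068854, Tdrd12 at chr7:35469098-35537745, Tdrkh at chr3:94413273-94434668, Stk31 at chr6:49395604-49469501 and Rnf17 at chr14:56402581-56525032. Tdrd5, Tdrd6 and Tdrd12 are on the minus strand and the others on the plus strand. Of the 6142 exonic bases of Tdrkh, 2255 are also exonic in Oaz3, a spermatid gene on the opposite strand. Whether the libraries or the counting used strand is not given in the sources used here, so reads of Tdrkh and Oaz3 over these bases cannot be told apart. Oaz3 had a mean of 323 FPKM in A0 and 337 FPKM in B0, and 687 FPKM in BA50. Tdrd5 shares 176 of its 6937 exonic bases with an antisense gene model.

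For 7 of the 9 genes the RefSeq promoter table (GRCm38.p6) held an entry, and the 250 bases before the start were searched on both strands for short motifs: CAACNG and TAACNG (bound by Myb proteins, among them the meiotic piRNA regulator A-MYB), TCCCGC (E2F), CACGTG (an E-box that MYC, MAX and USF proteins can bind) and TGACGT (cyclic AMP response element). CACGTG was present in 3 of the 7, Stk31, Tdrd1 and Tdrd9, against 6.0% of 32851 windows of the same length. CAACNG or TAACNG was present in the other 4 (Tdrd5, Tdrd7, Tdrd12 and Tdrkh), against 43.1% of all windows, and TCCCGC in 1 (Tdrd5), against 16.9%. TGACGT was present in 0 of the 7, against 6.5%. The windows are shown for the 3 genes with CACGTG, which had the largest busulfan changes described below, and for Tdrd7, which had the smallest. They are chr6:49395354-49395603 (Stk31), chr19:56825959-56826208 (Tdrd1), chr12:111971309-111971558 (Tdrd9) and chr4:45965085-45965334 (Tdrd7), each on the plus strand and 5′ to 3′, with matches to any of these motifs in capitals.
Stk31: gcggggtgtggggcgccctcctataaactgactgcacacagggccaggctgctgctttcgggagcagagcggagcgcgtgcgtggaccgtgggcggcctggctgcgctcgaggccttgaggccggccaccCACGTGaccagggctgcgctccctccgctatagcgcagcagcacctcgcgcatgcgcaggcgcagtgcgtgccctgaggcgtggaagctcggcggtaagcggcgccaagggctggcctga
Tdrd1: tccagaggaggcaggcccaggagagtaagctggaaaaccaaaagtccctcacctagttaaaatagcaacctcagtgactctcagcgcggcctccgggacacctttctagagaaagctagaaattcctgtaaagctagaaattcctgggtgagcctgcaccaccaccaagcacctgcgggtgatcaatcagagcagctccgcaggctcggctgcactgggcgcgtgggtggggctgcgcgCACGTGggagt
Tdrd9: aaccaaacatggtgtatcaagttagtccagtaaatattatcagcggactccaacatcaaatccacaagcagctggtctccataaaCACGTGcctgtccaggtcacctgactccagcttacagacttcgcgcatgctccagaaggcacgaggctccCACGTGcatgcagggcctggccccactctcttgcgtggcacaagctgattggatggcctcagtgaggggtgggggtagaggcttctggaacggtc
Tdrd7: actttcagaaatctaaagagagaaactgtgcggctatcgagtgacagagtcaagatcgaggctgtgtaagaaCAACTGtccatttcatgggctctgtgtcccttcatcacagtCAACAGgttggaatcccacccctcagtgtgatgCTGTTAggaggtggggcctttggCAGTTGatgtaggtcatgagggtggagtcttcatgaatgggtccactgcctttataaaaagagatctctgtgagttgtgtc
Stk31 had 26 CpG dinucleotides in its window, Tdrd1 11, Tdrd9 8 and Tdrd7 3, against a median of 6 over all windows. The windows not shown had 40 (Tdrd5), 19 (Tdrkh) and 5 (Tdrd12), so CpG counts did not follow the size of the busulfan change. The split of motifs along the size of the busulfan change was seen after the values were known. Its border lies between Tdrd9 and Tdrd12, whose busulfan changes were not told apart (exact permutation p = 0.389 for their ratio). Tdrd6 and Rnf17 had no window. A match is a run of letters, and binding was not measured.

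In A0, the 9 genes fell into a higher and a lower set. Tdrd7, Tdrd6 and Rnf17 had means of 45.9, 34.0 and 23.7 FPKM, and their neighbours in this order overlapped between samples. The other 6 genes lay close together, from 13.7 FPKM for Tdrd5 to 10.8 FPKM for Tdrkh, and each overlapped with the next. In A0 the samples of Rnf17 and Tdrd5 did not overlap. In B0 the same 3 genes remained at the top (32.8, 18.5 and 14.6 FPKM), whereas the lower 6 spread out from 5.31 FPKM for Tdrd5 to 0.640 FPKM for Stk31. Tdrd9 and Tdrd1, neighbours in B0 with means of 3.39 and 1.19 FPKM, no longer overlapped, and this was so in BA10 and BA50 also.

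**Figure D1:**
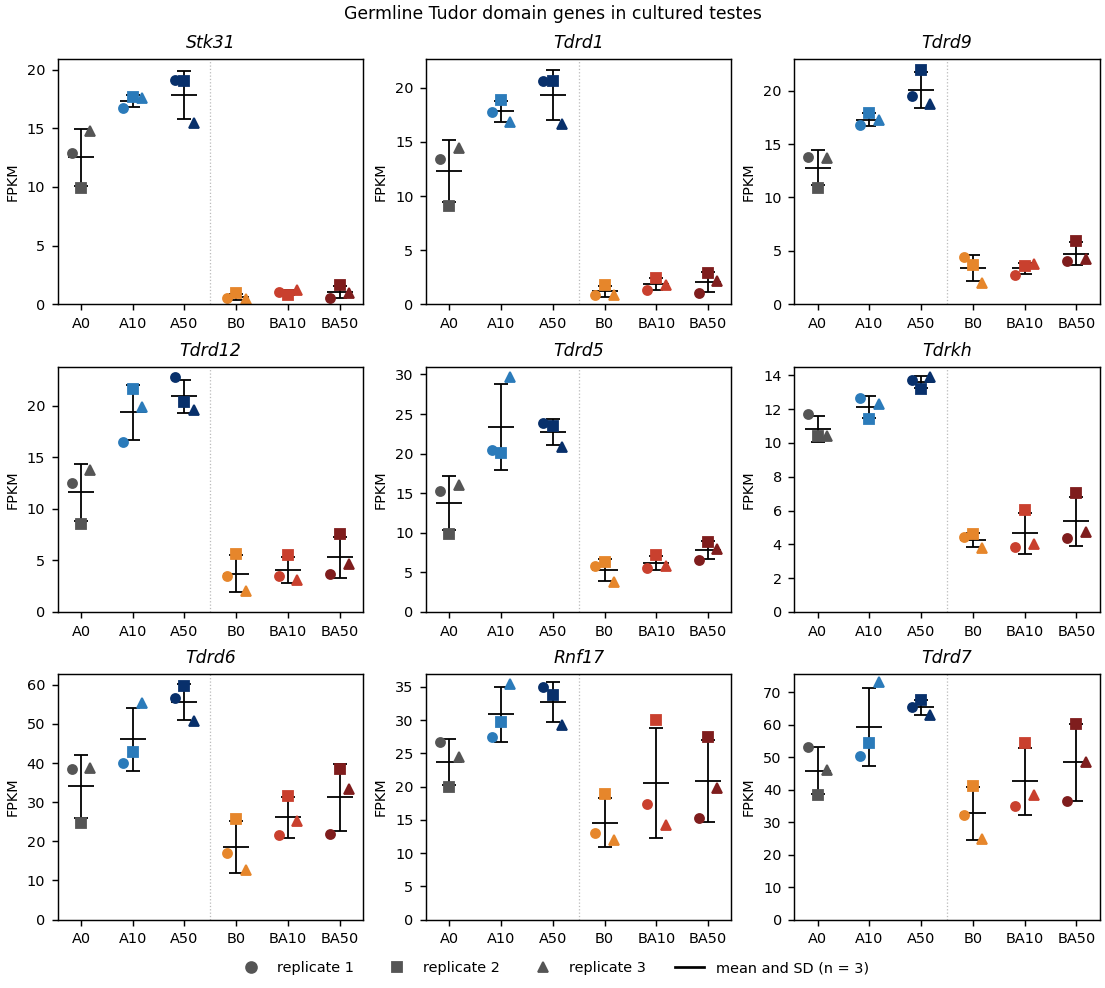
FPKM (y axis, from 0) of each of the 9 genes in the 6 groups (x axis). Circles, squares and triangles are replicates 1, 2 and 3, and black bars are the mean and SD of 3 samples. Panels run from Stk31, with 0.49 to 1.63 FPKM in the 9 busulfan samples and 9.94 to 19.09 FPKM in the 9 others, to Tdrd7, whose busulfan samples (24.81 to 60.24 FPKM) overlapped with the others (38.45 to 73.08 FPKM).

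The first question was how busulfan changed these genes, compared at each AOS concentration. All 9 genes had lower means with busulfan at each concentration, but by very different amounts, from a 19.6-fold difference of group means for Stk31 to a 1.40-fold difference for Tdrd7 without AOS. By limma's test on log2(FPKM + 1), adjusted over all 15790 genes tested, 7 of the 9 genes fell in B0 against A0, where 12.3% of all genes tested fell. The same number, 7 of 9, fell in BA10 against A10 (15.2% of all genes) and in BA50 against A50 (16.2%). In the mean of the 3 changes 9 of 9 fell (24.8% of all genes). At the study's own limits (adjusted p of at most 0.001 and a log2 change of at least 1) 5, 6 and 6 of the 9 were lower, beside 2.49%, 3.0% and 3.36% of all genes. The median log2 change over the 9 genes was -1.22, -1.75 and -1.44 at the 3 concentrations, beside -0.04, 0.03 and -0.01 over all genes tested. In these whole-tissue samples, fewer cells that express a gene and less RNA per cell cannot be told apart.

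Stk31, a Tudor protein with a kinase domain, changed most. Its FPKM was 12.85, 9.94 and 14.76 in A0 and 0.50, 0.93 and 0.49 in B0. The lowest A0 sample was thus far above the highest B0 sample. The log2 change was -3.04 ± 0.18 (SE, adjusted p = 3.29e-08 by limma). With AOS the values were 16.74, 17.65 and 17.60 in A10 against 1.08, 0.81 and 1.19 in BA10, and 19.09, 18.99 and 15.47 in A50 against 0.54, 1.63 and 1.00 in BA50. Stk31 in busulfan testes therefore stayed between 5.11% and 5.92% of its mean in matched testes without busulfan.

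Tdrd1, a scaffold of the intermitochondrial cement that binds PIWI proteins, came next. Its FPKM was 13.41, 9.09 and 14.45 in A0 and 0.91, 1.78 and 0.89 in B0. The groups were far apart, with a log2 change of -2.60 ± 0.23 (SE, adjusted p = 1.86e-06 by limma). It was 17.80, 18.84 and 16.87 in A10 against 1.36, 2.44 and 1.79 in BA10. In A50 it was 20.61, 20.67 and 16.68 against 1.09, 2.93 and 2.12 in BA50. The mean was 9.44 to 10.3 times lower with busulfan at the 3 concentrations.

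The piRNA helicase Tdrd9 and the piRNA factor Tdrd12, both needed for transposon silencing in the male germ line, changed to a like extent. Tdrd9 had 13.83, 10.92 and 13.66 FPKM in A0 and 4.45, 3.70 and 2.03 FPKM in B0. Tdrd12 had 12.48, 8.53 and 13.79 FPKM in A0 and 3.45, 5.59 and 2.04 FPKM in B0. In neither gene did a busulfan sample reach the lowest A0 sample. The log2 change was -1.69 ± 0.18 for Tdrd9 (SE, adjusted p = 1.66e-05 by limma). For Tdrd12 it was -1.47 ± 0.27 (SE, adjusted p = 0.00176 by limma). With AOS, Tdrd9 was 16.76 to 17.89 FPKM in A10 and 2.79 to 3.73 FPKM in BA10, and 18.70 to 21.95 FPKM in A50 and 4.08 to 5.95 FPKM in BA50. Tdrd12 was 16.47 to 21.64 FPKM in A10 and 3.12 to 5.48 FPKM in BA10, and 19.62 to 22.73 FPKM in A50 and 3.69 to 7.54 FPKM in BA50. The groups of both genes were apart in each of these comparisons.

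Tdrd5, which helps to process piRNA precursors in meiosis and is needed for the chromatoid body, had 15.29, 9.86 and 16.09 FPKM in A0 and 5.86, 6.33 and 3.73 FPKM in B0. Tdrkh, a Tudor protein of the mitochondrial surface on which piRNA ends are trimmed, had 11.72, 10.42 and 10.38 FPKM in A0 and 4.43, 4.60 and 3.79 FPKM in B0. Both genes were lower in every B0 sample than in any A0 sample. Their log2 changes were -1.22 ± 0.20 (SE, adjusted p = 0.000716 by limma) and -1.17 ± 0.15 (SE, adjusted p = 8.48e-05 by limma). Tdrd5 changed by -1.75 between A10 (20.46, 20.06 and 29.69 FPKM) and BA10 (5.52, 7.18 and 5.86 FPKM). Of the A10 samples, replicate 3 was the high one. Tdrkh varied little within each set, at 10.38 to 13.91 FPKM in the 9 samples without busulfan and 3.79 to 7.01 FPKM in the 9 with it.

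Tdrd6, Rnf17 and Tdrd7 had the smallest changes of the 9 genes. Tdrd6, which builds the chromatoid body, had 38.56, 24.63 and 38.85 FPKM in A0 and 17.09, 25.72 and 12.77 FPKM in B0. The highest B0 sample, replicate 2, was above the lowest A0 sample. The log2 change of Tdrd6 was -0.87 ± 0.26 (SE, adjusted p = 0.0345 by limma), and with AOS it was -0.80 and -0.85 with groups that did not overlap. The call of Tdrd6 was not firm. Without A0 replicate 1, A0 replicate 3, B0 replicate 1 or B0 replicate 3 it was lost in B0 against A0, as it was when only these groups were fitted (adjusted p = 0.108 by limma), and the highest adjusted p over all alternatives was 0.168. It was called in 8 of 15 alternatives in BA10 against A10 (adjusted p up to 0.157) and in 11 of 15 in BA50 against A50 (up to 0.13). It was lost there without A10 replicate 2 or 3, BA10 replicate 1 or 3, any A50 sample, or BA50 replicate 1. In BA10 against A10 it was lost also with replicate number as a block, with only those groups or with no filter (adjusted p up to 0.0575 by limma).

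Rnf17, a Tudor protein with a RING finger that is needed by spermatids, had 26.74, 20 and 24.40 FPKM in A0 and 12.97, 18.82 and 11.98 FPKM in B0. Its groups were just apart, yet the log2 change of -0.68 ± 0.25 (SE) did not pass (adjusted p = 0.0901 by limma), nor did those at 10 and 50 μg/mL AOS (adjusted p = 0.0944 and 0.0783 by limma). Leaving out replicate 2 of B0, BA10 or BA50 made Rnf17 pass in the comparison it belonged to. Tdrd7, which remodels the chromatoid body and acts in translation control, had 53.14, 38.45 and 46.00 FPKM in A0 and 32.27, 41.18 and 24.81 FPKM in B0. Here the groups overlapped, and the log2 change was -0.49 ± 0.22 (SE, adjusted p = 0.176 by limma). Over the 3 concentrations together, both genes passed: Rnf17 fell by 0.65 on the log2 scale (adjusted p = 0.00216 by limma) and Tdrd7 fell by 0.47 (adjusted p = 0.00842 by limma).

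**Figure D2:**
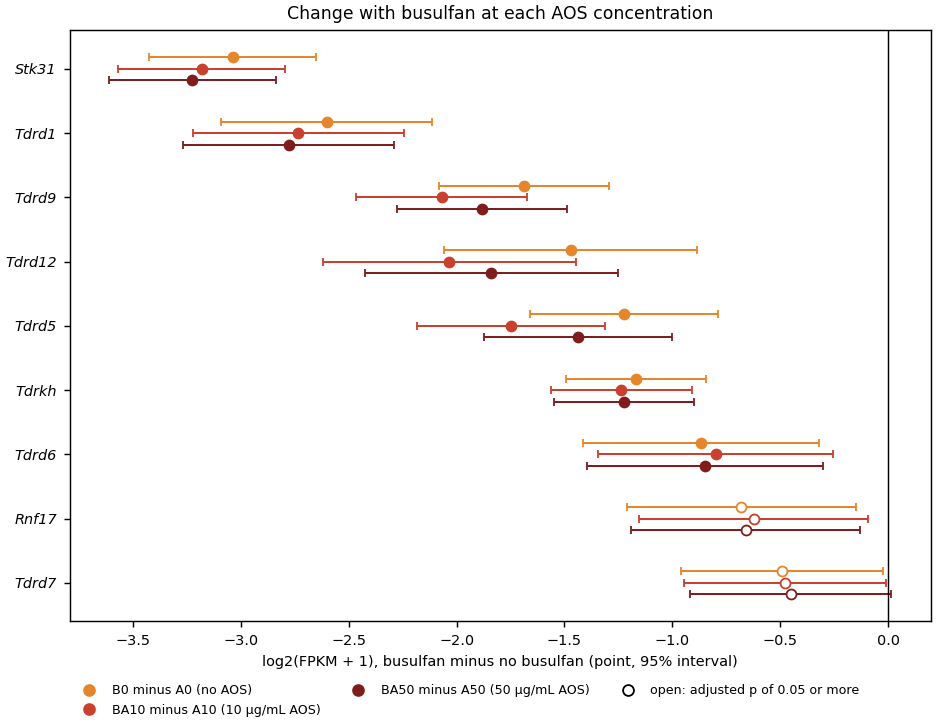
Change in log2(FPKM + 1) with busulfan (x axis, point with 95% interval from limma, 3 samples a group) for each gene (y axis) without AOS and with 10 or 50 μg/mL AOS. Filled points passed at an adjusted p under 0.05. The changes run from about -3.04 to -3.22 for Stk31 to -0.45 to -0.49 for Tdrd7, and the 3 changes of a gene differ by up to 0.56, for Tdrd12 (-1.47, -2.03 and -1.84).

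In the comparisons without B0, the 7 called genes had log2 changes between -0.80 and -3.18 in BA10 against A10 and between -0.85 and -3.22 in BA50 against A50. There the fat cell sum was 68.0 to 123 FPKM in BA10 against 42.5 to 61.0 in A10, and 101 to 138 in BA50 against 61.0 to 63.2 in A50, with 0 of the 7 genes called in either comparison. The epithelial sum was 17.0 to 28.1 in BA10 against 29.0 to 33.7 in A10, and 20.2 to 28.9 in BA50 against 33.4 to 36.9 in A50. Their part in the changes of the 9 genes was not tested. An exact two-sided permutation test was also made for each gene, with samples exchanged only within an AOS concentration (8000 divisions, a test added after the values were seen). All 9 had p under 0.05, which 28.4% of all genes tested reached with a fall. The exact p was 0.00025, the smallest it can give, for 6 of the 9 genes, beside 14.1% of all genes. The others were Tdrd6 (exact p = 0.0005), Rnf17 (exact p = 0.00125) and Tdrd7 (exact p = 0.003). For a single comparison of 3 samples with 3, the smallest exact permutation p is 0.1, and 7 of 9 genes reached it in B0 against A0, all with lower values in B0, where 22.7% of all genes had lower groups that did not overlap. In BA10 against A10 and BA50 against A50 this held for 7 and 9 of the 9, beside 20.2% and 25.7% of all genes.

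Since every sample holds all 9 genes, the ratio of 2 of them does not depend on how the sample was scaled, and it showed whether the genes fell unequally. The log2 ratio of FPKM was compared between the 9 samples with and the 9 without busulfan for all 36 pairs, with the same exact permutation within AOS concentration, unadjusted. Of these pairs, 33 had p under 0.05, and in 27 the 9 busulfan samples did not overlap with the other 9. All 8 pairs with Stk31 and all 8 with Tdrd1 were among the latter. No such share was computed over pairs of other genes, so the counts describe these 9 genes alone. Without busulfan, Stk31 and Tdrd1 had nearly equal FPKM (mean log2 ratio of Tdrd1 to Stk31 0.04, from -0.13 to 0.12). With busulfan the ratio was 0.90 (0.33 to 1.59), so Stk31 fell 1.82 times further than Tdrd1 (exact permutation p = 0.00025, n = 9 and 9). The widest gap was between Stk31 and Tdrd7, whose ratio shifted 13.3-fold (exact permutation p = 0.00025, n = 9 and 9).

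The pairs whose ratio shifts did not pass were Tdrd9 with Tdrd12 (log2 shift -0.12, exact permutation p = 0.389), Tdrd5 with Tdrkh (-0.23, exact permutation p = 0.08) and Tdrd6 with Rnf17 (-0.18, exact permutation p = 0.0608). The 9 genes thus stood in steps: Stk31, then Tdrd1, then Tdrd9 and Tdrd12, then Tdrd5 and Tdrkh, then Tdrd6 and Rnf17. Tdrd7 lay below Tdrd6 and Rnf17, with a shift of 0.20 against Rnf17 (exact permutation p = 0.006). Within a step a difference was not detected, which does not show that the genes changed alike. The place of Tdrkh is also uncertain, since 2255 of its 6142 exonic bases are shared with Oaz3.

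**Figure D3:**
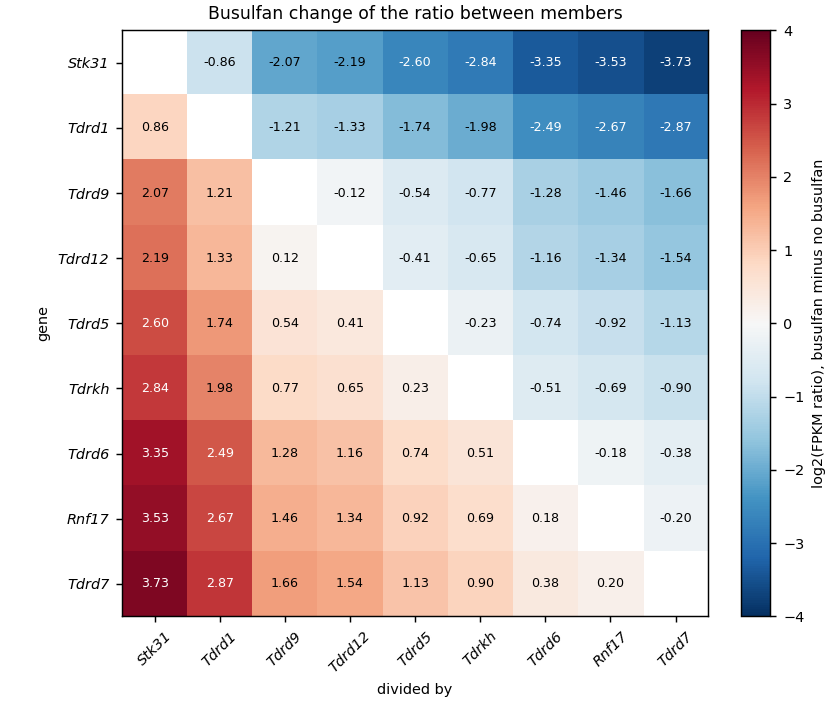
Shift of the log2 FPKM ratio of the gene in each row to the gene in each column, 9 busulfan samples minus 9 samples without busulfan. Blue is a lower and red a higher ratio with busulfan. Genes are ordered by their mean busulfan change, and shifts grow away from the diagonal, to -3.73 for Stk31 divided by Tdrd7, with small steps of -0.12, -0.23 and -0.18 for Tdrd9 and Tdrd12, Tdrd5 and Tdrkh, and Tdrd6 and Rnf17.

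Other genes of the piRNA pathway were compared from a list of 19, of which 17 passed the filter and could be tested. Of these 17, 13 fell in B0 against A0 and 0 rose, with a median log2 change of -1.14 (range -3.76 to -0.18), and 16 of 17 fell in the mean of the 3 busulfan changes. The largest falls were those of Mov10l1, the helicase of piRNA precursors, Fkbp6, a co-chaperone of PIWI loading, Piwil1, the PIWI protein of pachytene spermatocytes and spermatids, and Tex19.1, a germ cell factor of transposon control. Mov10l1 went from 18.1 ± 0.97 to 0.413 ± 0.183 FPKM (SD, n = 3). Piwil1 went from 16.3 ± 6.59 to 0.867 ± 0.379 FPKM (SD, n = 3), close to Stk31 in level and in change. Mov10l1, Fkbp6 and Tex19.1 had log2 changes of -3.76, -3.15 and -2.98 (adjusted p = 3.21e-10, 7.84e-10 and 6.43e-09 by limma).

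Tudor domain genes that act outside the germ granules, in chromatin, splicing or RNA binding, were also listed, and 19 of 21 passed the filter. In B0 against A0, 6 of 19 fell and 0 rose, with a median log2 change of -0.10, and 7 of 19 changes were above 0. In the mean of the 3 busulfan changes 10 of 19 fell and 3 rose. The difference between this list and the 9 genes was not tested. Those that moved most were Uhrf1, a maintenance factor of DNA methylation in dividing cells, which fell from 14.4 ± 0.227 to 4.83 ± 0.629 FPKM (SD, n = 3), the lamina protein Lbr, which fell by 0.95 on the log2 scale, and the histone methyltransferase Setdb1, which fell by 0.66. Akap1 differed by 1.49 on the log2 scale without passing (adjusted p = 0.4 by limma) and was scattered within B0 (SD 9.63 FPKM). The summed FPKM of the 20 genes of this list with a row was 301 to 313 in A0 and 263 to 294 in B0.

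Marker lists of germ cell stages show what moved beside the 9 genes. Among spermatocyte genes 9 of 14 fell in B0 against A0 (median log2 change -1.56), among them Hormad1 and Sycp3 of the meiotic chromosome axis (-3.73 and -3.28). Among genes of undifferentiated spermatogonia 3 of 8 fell (median -0.63). Among genes of differentiating spermatogonia 4 of 6 fell (median -1.63), with Stra8, the switch into meiosis, at 25.3 ± 6.05 FPKM in A0 and 0.00667 ± 0.0115 FPKM in B0 (SD, n = 3). None of 10 round spermatid genes, 8 elongating spermatid genes and 7 Sertoli cell genes passed in either direction, with medians of 0.28, -0.09 and -0.02. The summed FPKM of the round spermatid genes was 264 to 459 in A0 and 307 to 441 in B0. The part of cell make-up in the fall of the Tudor genes was not tested.

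**Figure D4:**
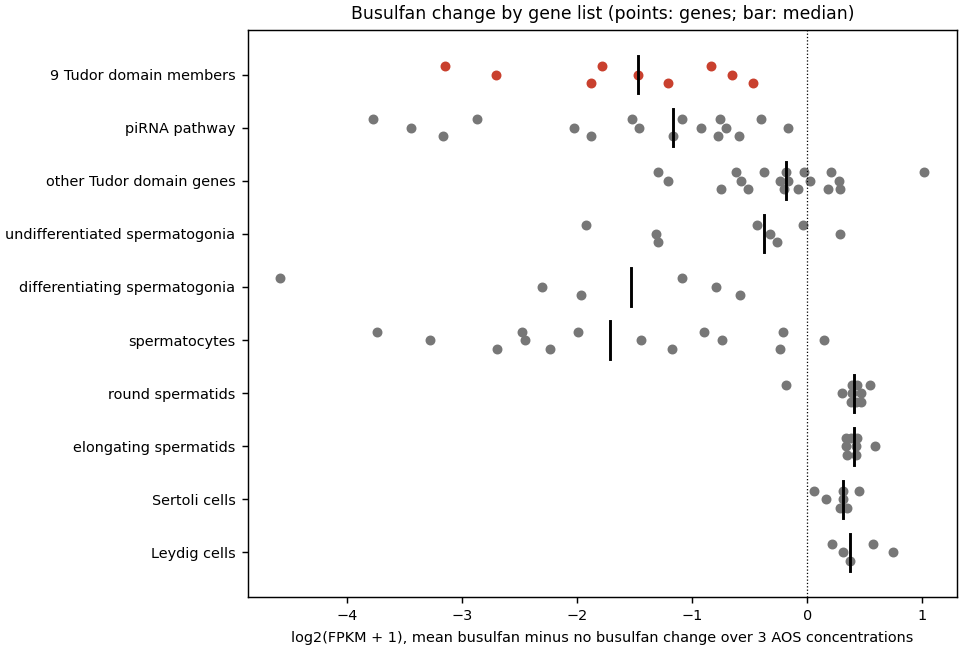
Mean busulfan change in log2(FPKM + 1) over the 3 AOS concentrations (x axis) for the genes tested in each list (y axis), with the list's median as a bar. The 9 Tudor genes (red) run from -3.15 to -0.47 with a median of -1.47. Medians are -1.17 for the piRNA pathway, -1.53 for differentiating spermatogonia and -1.72 for spermatocyte genes. They are -0.38 for undifferentiated spermatogonia and -0.18 for other Tudor domain genes. The medians of spermatid, Sertoli and Leydig cell genes lie between 0.31 and 0.41.

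Relative to the mean of the spermatocyte markers, the 9 genes parted in direction from A0 to B0. Log2 changes of the single markers ran from -3.73 to -0.03 in B0 against A0, so the direction can depend on which are averaged. The direction can also depend on the 1 added to each value, which makes falls to low FPKM come out too small. The mean log2(FPKM + 1) of the 14 spermatocyte genes was 4.41 to 4.78 in A0 and 2.70 to 3.23 in B0. Against this mean, Stk31 moved from -0.87 in A0 to -2.25 in B0 and Tdrd1 from -0.90 to -1.84. Tdrd9 was at -0.83 and -0.86 and Tdrd12 at -0.98 and -0.79, while between A10 and BA10 Tdrd9 went from -0.71 to -1.12 and Tdrd12 from -0.56 to -0.94. Between A10 and BA10 Tdrd5 went from -0.31 to -0.41. From A0 to B0 it moved the other way, from -0.76 to -0.32, and Tdrkh moved from -1.05 to -0.56. Tdrd7 moved from 0.93 to 2.10, Rnf17 from 0.00 to 0.99 and Tdrd6 from 0.49 to 1.28. These are group means of 3 samples, given as a description.

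The second question was whether AOS changed the 9 genes. In testes without busulfan all 9 means were higher with AOS, with log2 changes above 0 for 42.1% and 41.6% of all genes. They were higher by 1.12-fold (Tdrkh) to 1.70-fold (Tdrd5) in A10 and by 1.26-fold (Tdrkh) to 1.80-fold (Tdrd12) in A50, both against the same A0 samples. For 7 of the 9 genes every A10 sample was above every A0 sample, beside 7.81% of all genes, and for 9 of 9 every A50 sample was, beside 17.6% of all genes. By limma none of the 9 passed (lowest adjusted p = 0.322 and 0.208). None of the 15790 genes passed in either comparison, while 2405 and 2471 had an unadjusted p under 0.05. Those counts were 676 and 788 without A0 replicate 2, 622 in A10 against A0 without A10 replicate 3, and 1605 and 1492 in A50 against A0 without A50 replicates 1 and 2. They rose to 4079 and 3199 in A10 against A0 without A10 replicates 1 and 2, and to 2714 in A50 against A0 without A0 replicate 1. With all samples, 5 and 7 of the 9 genes were higher at an unadjusted p under 0.05, beside 4.51% and 9.85% of all genes. The A0 sample of replicate 2 was the lowest of its group for 8 of the 9 genes.

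In busulfan testes no difference with AOS passed for the 9 genes. Against B0, 9 of 9 log2 changes were above 0 in BA10 (0.03 to 0.51, 44.4% of all genes above 0) and in BA50 (0.25 to 0.74, 44.7% of all genes above 0), both with the same B0 samples. The mean FPKM of Tdrd9 was all but equal in BA10 and B0 (3.38 and 3.39). None passed (lowest adjusted p = 0.749 and 0.127 by limma), and 0 and 4 of the 9 were higher at an unadjusted p under 0.05, beside 1.89% and 12.7% of all genes. By limma, 4 and 15 of all genes passed at an adjusted p under 0.05, 0 and 1 of them higher. Among those lower were 1 and 4 of the 7 fat cell genes, and 3 and 3 of the 5 epithelial genes. The summed FPKM of both lists was highest in B0, which both comparisons share. Of all genes, 798 and 3841 had an unadjusted p under 0.05 in either direction. On the log2(FPKM + 1) scale Tdrd6 differed most in BA50 (by 0.74), with 21.78, 38.54 and 33.38 FPKM against 17.09, 25.72 and 12.77 FPKM in B0. Only Tdrd5 had groups that did not overlap (6.56, 8.88 and 8 FPKM against 5.86, 6.33 and 3.73 FPKM), beside 11.2% of all genes. In BA10 none of the 9 had, beside 3.64%. For Tdrd9, Tdrd12 and Tdrkh the change in BA10 turned below 0 when single samples were left out.

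Samples of busulfan testes were graded alike for nearly all 9 genes. Replicate 2 was the highest sample for 8 of 9 genes in B0, 7 in BA10 and 9 in BA50, replicate 3 was the lowest for 9 in B0 and replicate 1 for 9 in BA50. In BA50 against B0 the deviations of same-numbered samples from their group means, across all genes, had r = 0.562, 0.422 and 0.138. With replicate number as a block the lowest adjusted p of the 9 genes in that comparison was 0.142 by limma, and still none passed. Without BA50 replicate 1, Tdrd6 passed (adjusted p = 0.0465 by limma, 3.88% of all genes rose), and calls over all genes went from 15 to 1115.

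Averaged over testes with and without busulfan, a comparison added after the values were seen, 4 of the 9 genes rose with AOS at 50 μg/mL: Tdrd6 by 0.73, Tdrd5 by 0.61, Tdrd7 by 0.53 and Tdrd9 by 0.51 on the log2 scale (adjusted p = 0.0386, 0.0369, 0.0494 and 0.0394 by limma), beside 5.7% of all genes. The remaining 5 had changes of 0.28 (Tdrkh) to 0.64 (Tdrd12) and adjusted p from 0.0539 to 0.0982. The calls depended on single samples. Leaving out 1 sample gave 0 called genes for 8 of the 12 samples (A0 replicate 2, every A50 sample, B0 replicates 1 and 3, and BA50 replicates 2 and 3), 1 without A0 replicate 3, 7 without B0 replicate 2 and 9 without BA50 replicate 1, and a fit with replicate number as a block called 0. Beside these genes, 4 of 14 spermatocyte genes were called higher in the same mean, and 5 of 7 fat cell and 4 of 5 epithelial genes lower. Exact permutation within busulfan status (400 divisions, smallest p 0.005, unadjusted) gave p between 0.005 and 0.025 for the 9 genes, and 16.8% of all genes were higher with an exact p under 0.05. For 10 μg/mL 5 of the 9 had an exact p under 0.05, beside 4.34% of all genes. At 10 μg/mL none of the 9 passed in the corresponding mean (lowest adjusted p = 0.29 by limma), and none of all genes did, with 2652 at an unadjusted p under 0.05.

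**Figure D5:**
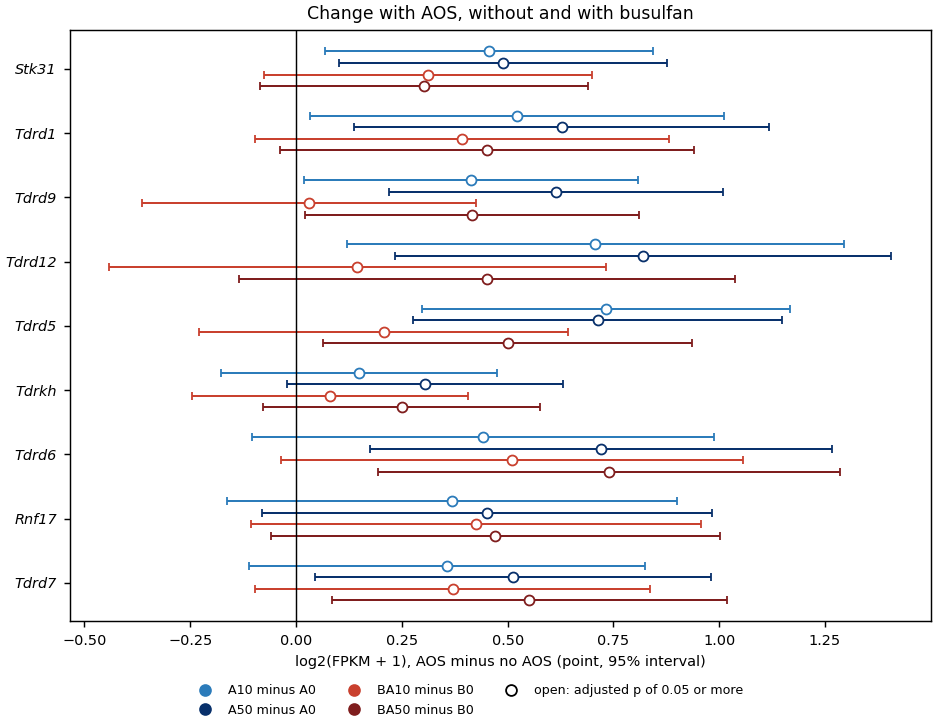
Change in log2(FPKM + 1) with AOS (x axis, point with 95% interval from limma, 3 samples a group) for each gene (y axis), in testes without busulfan (A10 and A50 minus A0, blue) and with busulfan (BA10 and BA50 minus B0, red). All points are open, since none passed, and all lie above 0, from 0.03 for Tdrd9 in BA10 to 0.82 for Tdrd12 in A50.

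The change with AOS was also compared between testes with and without busulfan. For 10 μg/mL the difference of changes was between -0.56 and 0.07 on the log2 scale for the 9 genes, and for 50 μg/mL between -0.37 and 0.04. None passed in limma (lowest adjusted p = 0.91 and 0.975), none of all genes did, and 627 and 992 genes had an unadjusted p under 0.05, with 0 of the 9 among them. The 95% interval was widest for Tdrd12, from -1.39 to 0.27 at 10 μg/mL, so the interval holds differences of over 1 log2 unit. The summed FPKM of elongating spermatid markers was 5351 to 11577 in BA50 against 2440 to 3570 in B0, and within the A0 range in A50 (3367 to 4346 against 2579 to 4610), with 0 of 8 genes called in either. The 14 spermatocyte markers summed to 597 to 721 FPKM in A10 and 673 to 698 FPKM in A50, all above the 440 to 563 FPKM of A0, and to 217 to 392 FPKM in BA50 and 155 to 243 FPKM in B0. Their part in the values of the 9 genes was not tested.

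Across the 18 samples, which share 6 conditions, the 9 genes varied together, with a median Pearson's r of 0.929 between pairs on the log2(FPKM + 1) scale (0.682 for Tdrd7 and Stk31 to 0.993 for Tdrd1 and Stk31). Within the 9 samples without busulfan the median was 0.903 (0.655 to 0.983), and within the 9 with busulfan 0.811 (0.478 to 0.978). The genes outside the 9 whose values were most like their mean standardised profile over the 18 samples were Boll (r = 0.995), Strbp (0.995), Plk4 (0.995), Wdr35 (0.994) and Ddx4 (0.993). Boll is a meiotic RNA-binding protein of the DAZ family, Strbp a spermatid RNA-binding protein, Plk4 a kinase of centriole duplication, Wdr35 a factor of ciliary transport and Ddx4 the germ cell helicase of the granules. Boll had 30.1 FPKM in A0, 48.0 in A50, 12.7 in B0 and 19.6 in BA50 as group means.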

How the data were processed

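The deposited table held FPKM values of 22657 mouse genes in 18 samples, in columns that name each sample. The authors made them from poly(A) RNA. The submitters' processing notes list HISAT, Bowtie2, RSEM and GRCm38.p5, while the study's methods name SOAPaligner and RPKM, so the steps behind these values are uncertain. Read numbers could not be recovered, so depth is unknown and the study's read-based test was not run. Per the labels, AOS doses are in μg/mL.

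Samples were grouped by the labels. The 15790 genes that reached 1 FPKM in 3 or more samples were kept, and log2(FPKM + 1) of all 18 samples was fitted with limma 3.58.1 in R 4.3.3, with 1 coefficient per group and a mean-dependent prior. Adjustment was by Benjamini and Hochberg over all genes tested, and a gene was called at an adjusted p under 0.05. With 1 added to each value, folds of genes with low FPKM come out too small. The fit was also run on simulated data with falls set only in genes of higher mean level, and no result here rests on that run. The 9 genes and all lists were chosen with earlier results of these data known. Other genes are named from those lists (at most 4 a list, by the largest change in B0 against A0 or BA50 against B0) or as the 5 most alike in profile, beside Clu, Ddx4 and Oaz3, which were named after their values were seen. Sequences are from RefSeq, and proteins were not analysed here. The deviations of same-numbered samples from their group means correlated between -0.429 and 0.562, and exceeded 0.1 for all 3 pairs in 1 of 7 comparisons, BA50 against B0.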

Additional observations from a re-analysis of the deposited data

How the results depend on the processing

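Of 1557 alternative values for single genes, 1474 kept their direction and their side of the threshold, 61 lost a call, 16 gained one and 6 turned direction. The 6 were in BA10 against B0, each with 1 sample left out: Tdrd9 ranged from -0.22 to 0.21, Tdrd12 from -0.13 to 0.42 and Tdrkh from -0.091 to 0.18. Values that were not called and stayed so count among those kept. In A10 and A50 against A0, BA10 and BA50 against B0 and the mean change with 10 μg/mL AOS, no call existed to lose. The number of the 9 genes called was 6 to 8 in each busulfan comparison and 9 in their mean when 1 sample was left out. In BA50 against B0 it was 0 to 1, and in the mean change with 50 μg/mL AOS 0 to 9. In that mean it was 0 with replicate number as a block, 2 with no filter on low values and 0 at the study's own limits (adjusted p of at most 0.001 and a log2 change of at least 1). At those limits 5, 6 and 6 genes were called in the busulfan comparisons. In BA50 against B0, deviations of same-numbered samples correlated above 0.1 for all 3 numbers, though no label says that numbers pair samples. There replicate number as a block changed no call of the 9 genes (0 called), while calls over all genes went from 15 to 4. The cause of these changes was not tested. Depth could not be weighed, since the files give no read numbers.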
